A study of Sus scrofa with 27 samples.

Results

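Receptors through which circulating metabolic hormones reach the ovary were followed in mural granulosa cells (GCs), which form the inner lining of the follicle. The 10 receptor genes were taken by symbol, and each matched 1 of the 35670 Ensembl identifiers in the count files: GHR (growth hormone), LEPR (leptin), ADIPOR1 and ADIPOR2 (adiponectin), PRLR (prolactin), THRA and THRB (thyroid hormone), KLB and FGFR1 (together the receptor of FGF21) and VDR (active vitamin D). Of these, 8 had at least 5 counts per library on average and were tested, and LEPR and VDR fell short. The question was whether a feed restriction during lactation left a difference in these receptors after weaning. The cells came from wild-type Large White times Norwegian Landrace sows, 13 full-fed (FF) at 6.5 kg per day and 14 restricted (RES) to 3.25 kg per day for 2 weeks until weaning. Both groups then received the same feed until tissue was taken on day 2 after weaning. All sows had nursed their first litter, and from a larger herd the RES sows with the greatest weight loss and the FF sows with the least had been kept. Each sow gave 1 library, made from laser-captured GCs of its largest healthy follicle, so replicates are separate animals and each stands for 1 follicle. The study reports that these follicles were smaller in RES than in FF sows. The part of follicle size in the differences between diets was not tested.

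Growth hormone, prolactin and leptin receptors carry no kinase of their own. They work through JAK2, which activates STAT transcription factors, and STAT5 in turn switches on CISH and SOCS2, whose proteins shut the receptors off again. Adiponectin receptors are membrane proteins of the PAQR family that signal through the adaptor APPL1 and AMP-activated kinase. KLB binds FGF21 and hands it to FGFR1, a receptor tyrosine kinase. Thyroid hormone and vitamin D receptors are transcription factors that sit on DNA with a retinoid X receptor. In follicles, growth hormone and prolactin are known to act on GCs, and thyroid hormone, leptin and adiponectin link feeding state to reproduction.

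The libraries held between 12299220 and 16021200 counts in FF and between 12942198 and 18120922 in RES. Values below are normalised counts, that is, counts divided by a size factor for each library, and fold changes are RES relative to FF. The base quality of the reads left a gap between libraries, with 7 FF and 7 RES sows above it (upper quality group) and 6 FF and 7 RES sows below it (lower quality group). FF sow 10, here in the lower group, is placed with doubt. Under its number stands the lowest RNA integrity in the study's table of RNA quality, although the labels give low integrity as the reason why a different FF sow was left out. Of the 10 GC markers tested, SERPINE2 (54360 in FF, 44186 in RES) and VCAN (50758 and 56380) had the highest mean levels, and AMH, 5.68 and 7.32, the lowest. The GC list summed to 108021 to 188007 in FF and 90529 to 236209 in RES. Markers of other cells gave lower sums, of which stroma was the highest with 13128 to 37246 and 10645 to 34383, and the endothelial list summed to 1195 to 2405 and 839 to 2365. In bulk libraries such as these, fewer cells of a type and less RNA per cell cannot be told apart.

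None of the 8 receptors tested (0 higher, 0 lower) passed an adjusted p of 0.05 in edgeR's quasi-likelihood test with Benjamini-Hochberg adjustment over 11384 genes, whereas 14.1% of all genes tested did, 8.29% higher and 5.85% lower in RES GCs. With the unadjusted p under 0.05, 1 of the 8 receptors, GHR, would be counted, against 30% of all genes. By other tools GHR alone was called, both with DESeq2 (adjusted p = 0.0493) and with limma's voom and sample quality weights (adjusted p = 0.0198). These tools called 17.3% and 28% of all genes. The log2 fold change was below 0 for 5 receptors and above 0 for 3, with a median of −0.14 beside −0.02 for all genes tested. GHR had the largest fitted change of the 8, and it is described first.

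**Figure D1:**
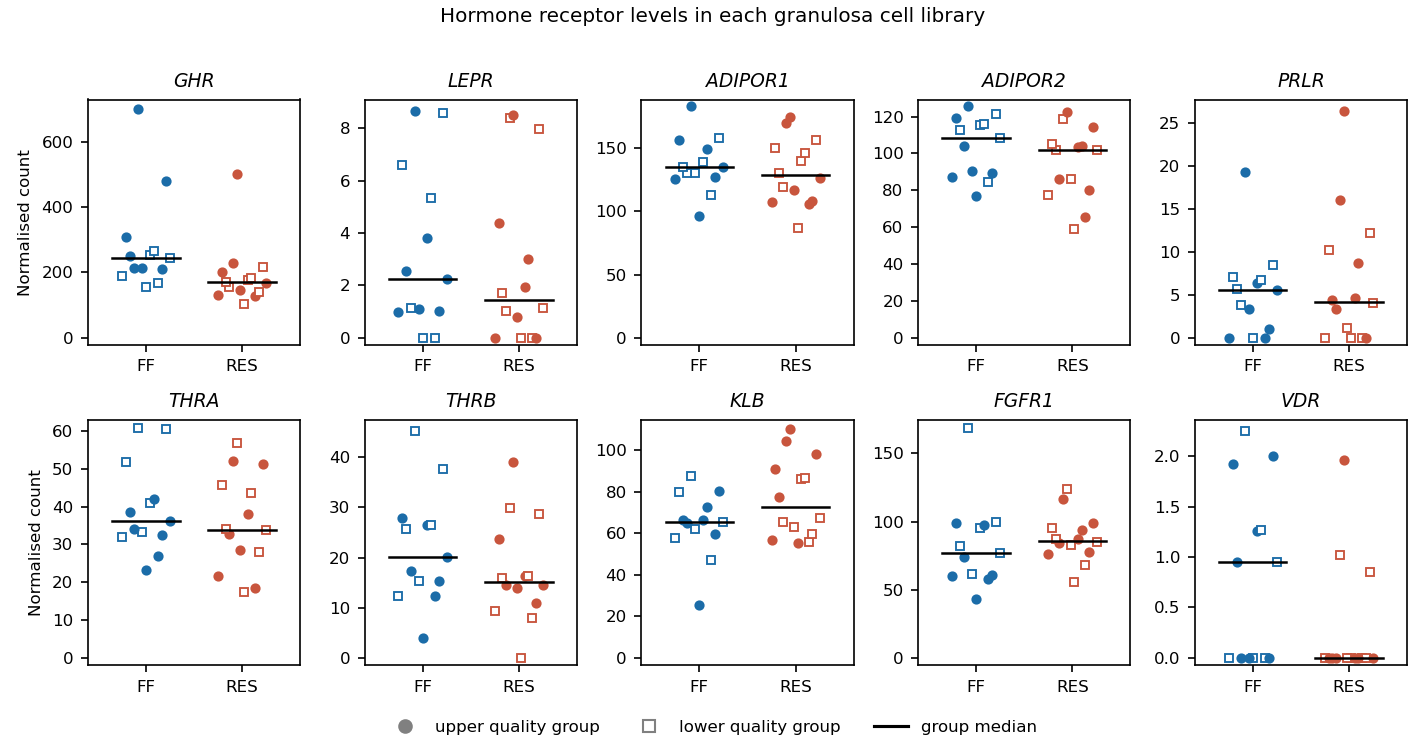
Normalised counts of the 10 receptors in each library (y axis, linear, a separate scale for each gene), by diet (x axis), with filled circles for the upper and open squares for the lower quality group and a line at the median of 13 FF or 14 RES sows. GHR lies lower in most RES libraries, with 1 RES library at 503, while 4 RES libraries lie above every FF library for KLB and LEPR, PRLR and VDR sit near 0.

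GHR (ENSSSCG00000016866, the growth hormone receptor, at chr16:27126300-27422618 on the plus strand of Sscrofa11.1) ranged from 155 through a median of 244 to 701 normalised counts in FF GCs. In RES GCs it ranged from 104 through 169 to 503. The mean was 281 ± 150 in FF (SD, n = 13) against 189 ± 96.9 in RES (SD, n = 14), and 13 of the 14 RES sows lay below the FF median. The groups overlapped. A few sows stood high: FF sow 14 at 701, FF sow 6 at 480 and RES sow 4 at 503, while every other library lay at or below 308. The fitted log2 fold change was −0.60 (SE 0.23, p = 0.0149, adjusted p = 0.0788 by edgeR), a fold of 0.66 with a 95% interval of 0.474 to 0.919.

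Single high sows moved the GHR value. Without RES sow 4 the log2 fold change was −0.81 and GHR was called (adjusted p = 0.00643), in a fit that called 15.6% of all genes. Without FF sow 14 it was −0.40 (adjusted p = 0.2). In the other 25 fits that each left out 1 sow it was not called, and in all 27 the fold change was below 0. Within the upper quality group, which holds all of the 3 high sows, GHR was at −0.68 (SE 0.36, adjusted p = 0.199 by edgeR), and within the lower quality group at −0.42 (SE 0.18, adjusted p = 0.371). The difference between these values was 0.27 (SE 0.43, p = 0.544, edgeR's interaction term).

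**Figure D2:**
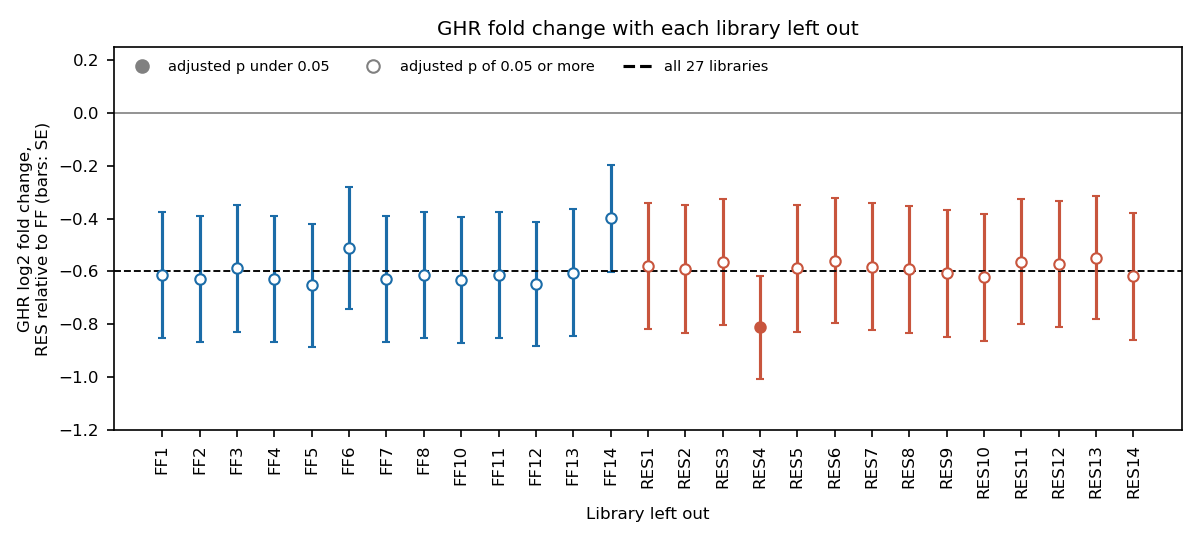
Log2 fold change of GHR, RES relative to FF (y axis, bars show the SE), in 27 fits that each left out the library named on the x axis. Filled points passed an adjusted p of 0.05, open points did not, and the dashed line marks the fit with all 27 libraries. Only the fit without RES sow 4 passed, and the fit without FF sow 14 lay closest to 0.

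The genes whose levels went most closely with GHR over the 27 libraries, after each diet's mean was subtracted, were RHOBTB1 (Pearson's r = 0.85), ARID5B (0.83) and MTR (0.83), the methionine synthase gene. These values describe libraries that share their depth and RNA quality with every gene in them, and the same high sows weigh on each of them. By rank the values were 0.69, 0.75 and 0.59. The lists of cell markers differed in how the mean log2 level of their tested genes went with GHR. The residual r of GHR was −0.49 with the GC list, −0.47 with the theca list, −0.35 with the endothelial list, 0.35 with the immune list and 0.12 with the stroma list. It was 0.62 with the oocyte list, of which only GDF9 was tested, at a mean of 229 in FF and 210 in RES. This value is therefore the r with GDF9 alone. BMP15 (1.64 and 0.667) and ZP4 (0.444 and 0.806) did not enter it. In RES sow 4 the GC sum was 90529, the lowest of all RES libraries, and in FF sow 14 it was 138681. The endothelial (839) and the smooth muscle and pericyte sum (1925) of RES sow 4 were the lowest of RES libraries too. Its theca and stroma sums, 1258 and 12806, lay below the RES medians of 2023 and 20714. Only its immune sum (112 against 107) and oocyte sum (217 against 201) lay above the RES median. FF sow 14 had the highest immune sum of all libraries, 348 against an FF median of 154, and the highest erythroid sum, 1069 against 92.2. The part of these differences in the GHR result was not tested.

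PRLR (ENSSSCG00000016830, the prolactin receptor, at chr16:20637568-20655881, minus strand) was sparse. It had at least 1 count in 10 of 13 FF and 10 of 14 RES libraries, with 66 and 98 counts in all. Its level ran from 0 through a median of 5.59 to 19.3 in FF and from 0 through 4.19 to 26.4 in RES. The highest values were in FF sow 4 and RES sow 4, and the groups overlapped over nearly the whole range. RES GCs differed by 0.30 on the log2 scale (SE 0.61, adjusted p = 0.779 by edgeR), with a 95% interval of the fold from 0.52 to 2.93. The sign turned without RES sow 4, to −0.11. In the lower quality group it was −0.47 against 0.82 in the upper one, and the interaction had p = 0.301 before adjustment.

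The gene most like PRLR by residual r was AGXT2 (0.77), its neighbour on the same strand of chromosome 16, with 20559 bases and no annotated gene between them. AGXT2 encodes a mitochondrial aminotransferase. It was followed by METAP1 (0.76) and by P2RY1 (0.68). At these counts, whether reads of one neighbour were counted for the other was not tested.

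LEPR (ENSSSCG00000025188, the leptin receptor, at chr6:146802297-146896152, minus strand) had a mean count of 3.11, under the limit for testing. At least 1 count was found in 11 of 13 FF and 10 of 14 RES libraries, with 43 and 41 counts in all. The level ran from 0 through 2.24 to 8.67 in FF and from 0 through 1.42 to 8.51 in RES. A fit without a count filter put the log2 fold change at −0.26 (SE 0.57, adjusted p = 0.821 by edgeR). LEPR and PRLR had the highest residual r among the 36 pairs of receptors other than VDR, 0.60, and FF sow 4 and RES sow 4 were the highest of their diet for both. LEPROT, which shares its promoter region with LEPR in mammals and whose product limits the leptin receptor at the cell surface, stood at 1069 in FF and 1058 in RES.

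Downstream of these 3 receptors, 20 genes of the JAK-STAT arm were tested. Of these, STAT5A and STAT3 were lower in RES GCs, PTPN2 was higher and 17 were not called. The share called was 15% beside 14.1% of all genes, and the median log2 fold change of the list was −0.08. STAT5A, which like STAT5B is a STAT5 transcription factor activated by these receptors, ranged from 30.1 through 49.1 to 76.0 in FF and from 21.2 through 30.9 to 57.9 in RES. It was below the FF median in 12 of 14 RES sows. The fitted log2 fold change came to −0.70 (SE 0.19, adjusted p = 0.0144 by edgeR), and it was called in all 27 fits that left out 1 sow, at −0.65 to −0.79. Within the upper quality group it was at −0.81 (adjusted p = 0.0661) and within the lower at −0.59 (adjusted p = 0.346). Its residual r with GHR was 0.51 over all libraries, 0.49 among FF and 0.52 among RES sows, as a description.

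STAT3, the main STAT of the leptin receptor, was at 366 ± 52.7 in FF (SD, n = 13) against 308 ± 49.3 in RES (SD, n = 14), which is −0.29 on the log2 scale (SE 0.09, adjusted p = 0.024). PTPN2, a phosphatase that removes phosphate from JAK and STAT proteins, was at 598 ± 64.0 and 738 ± 94.0 (log2 fold change 0.26, SE 0.07, adjusted p = 0.00923 by edgeR) and above the FF median in 13 of 14 RES sows. JAK2, the kinase bound to all of these receptors, was at 817 and 771 and was not called (adjusted p = 0.371). The most abundant genes of the list that were not called were LEPROTL1, a relative of LEPROT, at 2328 in FF and 2632 in RES, and PTPN11, the phosphatase SHP2, at 1646 and 1778.

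CISH, SOCS2, STAT5B and KLF9 fell outside the rule for naming genes and were chosen after their values were seen, for their known place in these pathways. SOCS2 ran from 20.2 through 40.1 to 121 in FF and from 21.5 through 34.3 to 59.5 in RES. On the log2 scale it differed by −0.48 (SE 0.22, p = 0.0381, adjusted p = 0.141 by edgeR) and by −0.30 without FF sow 13, with 0.0046 in the upper quality group and −0.94 in the lower one (SE 0.32, p = 0.00969, adjusted p = 0.245). CISH ran from 4.41 through 10.1 to 20.2 in FF and from 3.27 through 7.77 to 13.7 in RES, with 11 of 14 RES sows below the FF median. Its difference was −0.44 on the log2 scale (SE 0.23, adjusted p = 0.194). STAT5B was at −0.22 (SE 0.10, adjusted p = 0.154). None of the 3 passed the test, and the residual r of GHR was 0.03 with SOCS2 and −0.30 with CISH.

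The sequence upstream of CISH is shown because it holds the letters that STAT5 is known to bind. The motif TTCNNNGAA, which reads the same on both strands, was searched in the 500 bases before the RefSeq gene start of Sscrofa11.1. This window was set after a shorter one had been searched. The motif was found in the windows of 12.7% of 19529 protein-coding genes. The CISH window held 4 matches, as 2 close pairs, and only 4 of all windows, 0.0205%, held as many. The annotated CISH model begins at the start codon, so the window includes the untranslated start of the transcript nearest to it. The stretch with the matches, in capitals, lies 386 to 217 bases before that start, at chr13:33090757-33090926, minus strand:

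CISH upstream: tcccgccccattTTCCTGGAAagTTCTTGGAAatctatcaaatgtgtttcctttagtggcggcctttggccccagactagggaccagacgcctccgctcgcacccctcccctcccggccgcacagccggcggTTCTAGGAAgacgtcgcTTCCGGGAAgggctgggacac

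Among the receptors themselves only the PRLR window held a match, and the windows of SOCS2, IGF1, STAT5A and STAT5B held none. A match is a description of letters and not of binding, which these data do not measure.

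**Figure D3:**
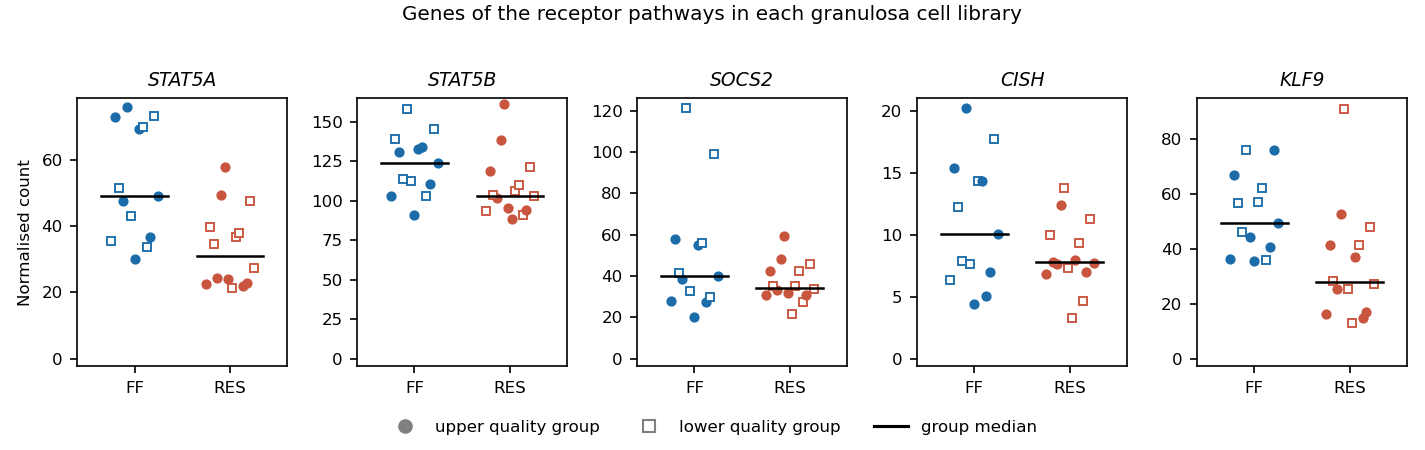
Normalised counts of STAT5A, STAT5B, SOCS2, CISH and KLF9 in each library (y axis, linear, a separate scale for each gene), by diet (x axis), with symbols and medians as in the plot of the receptors. STAT5A passed the test and lies lower in most RES libraries, and the FF spread of SOCS2 is widened by 2 high sows.

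Of the hormones and growth factors that act on these receptors or follow from them, 2 were at a testable level in GCs and neither was called. IGF1, the growth factor that growth hormone raises in many tissues, was at 1035 ± 440 in FF (SD, n = 13) against 853 ± 280 in RES (SD, n = 14), or −0.31 on the log2 scale (SE 0.21, adjusted p = 0.325 by edgeR). FGF2 was at 136 and 135. The mean levels of FGF21 were 1.36 in FF and 1.27 in RES, those of PRL 2.82 and 3.11, and those of FGF1 2.69 and 1.70. FGF19 had no count in any library, LEP a count in 1 library and ADIPOQ in 2 of the 27.

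ADIPOR1 (ENSSSCG00000010931, at chr10:24907491-24923540, minus strand) had the highest level of the 10 receptors per length, and neither adiponectin receptor passed the test. ADIPOR1 ran from 96.1 through 135 to 184 in FF and from 87.2 through 129 to 175 in RES. The fitted log2 fold change came to −0.10 (SE 0.10, adjusted p = 0.533 by edgeR), with a 95% interval of the fold from 0.805 to 1.08, and −0.060 without FF sow 6. ADIPOR2 (ENSSSCG00000000757, at chr5:68755789-68807247, plus strand) ran from 77.1 through 108 to 126 in FF and from 58.8 through 102 to 122 in RES.

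For ADIPOR2 the fit gave −0.17 on the log2 scale (SE 0.11, adjusted p = 0.297 by edgeR), and the 95% interval of the fold was 0.757 to 1.04. The levels of both receptors rose and fell together to some extent, with a residual r of 0.46. In the RefSeq annotation 56.2% of the exon bases of ADIPOR2 also lie in CACNA2D4 on the opposite strand. CACNA2D4 had 10 counts over all 27 libraries. The counting used no strand option, and whether reads in the shared bases were lost to ADIPOR2 was not tested. The genes most like ADIPOR1 were HYI (0.78), CDIPT (0.76) and KCNQ1 (0.72), and those most like ADIPOR2 were DEDD (0.75), FARP1 (0.70) and HIP1 (0.69).

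Of the 12 tested genes of the adiponectin arm, APPL1 and APPL2 were lower in RES GCs and 10 were not called, a share called of 16.7% beside 14.1% of all genes. A log2 fold change below 0 was found for 11 of the 12, and for 52.7% of all genes tested. APPL1, the adaptor that binds both adiponectin receptors, ran from 1459 through 2232 to 2645 in FF and from 1435 through 1837 to 2215 in RES. All of the 14 RES sows lay below the FF median. This came to −0.29 on the log2 scale (SE 0.09, adjusted p = 0.0241 by edgeR), and APPL1 was called in all 27 fits that left out 1 sow, but not without both RES sows 3 and 5, which had the lowest base quality (adjusted p = 0.0546). APPL2, its close relative, was at 613 ± 116 (SD, n = 13) and 489 ± 88.6 (SD, n = 14), or −0.36 on the log2 scale (SE 0.11, adjusted p = 0.0267). It missed the threshold without FF sow 6 and without FF sow 8, with an adjusted p of at most 0.0515.

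The kinase subunits PRKAA1 (1402 in FF, 1286 in RES) and PRKAA2 (211 and 189) were the most abundant genes of this list that were not called. CDH13, a cadherin that also binds adiponectin, was at 15.1 and 14.0. It was not called either. Within the upper quality group PRKAA1 was called lower (log2 fold change −0.39, adjusted p = 0.0291 by edgeR), where 17.8% of all genes were called. In the lower group PRKAA1 was at 0.088.

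THRA (ENSSSCG00000035969, at chr12:22270506-22296684, minus strand) and THRB (ENSSSCG00000036033, at chr13:10900716-11360587, minus strand) encode the thyroid hormone receptors. THRA ran from 23.1 through 36.1 to 60.8 in FF and from 17.4 through 33.8 to 56.9 in RES. The fitted log2 fold change came to −0.18 (SE 0.19, adjusted p = 0.561 by edgeR), and the 95% interval of the fold was 0.679 to 1.155. FF sow 10 had the highest THRA level of all, and without it the log2 fold change was −0.10. THRB ran from 4.01 through 20.2 to 45.2 in FF and from 0 through 15.2 to 39.1 in RES, where 10 of 14 sows lay below the FF median.

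THRB had a fitted log2 fold change of −0.40 (SE 0.34, adjusted p = 0.447 by edgeR), with a wide 95% interval of the fold from 0.469 to 1.22, and was at −0.26 without FF sow 8. Both receptors had a negative value in the lower quality group, −0.37 for THRA and −0.86 for THRB, and a value near 0 in the upper one, 0.03 and 0.07. Neither interaction passed (p = 0.283 and p = 0.175 before adjustment). With FF sow 10 placed in the upper group, the values there turned to −0.12 for THRA and −0.026 for THRB. Exons of NR1D1 on the opposite strand cover 45.7% of the THRA exon bases, and NR1D1 had 27 counts over all libraries. Whether reads in these bases were lost to THRA, which had 1027 counts, was not tested. Over the libraries THRA and THRB went in opposite ways, with a residual r of −0.33. THRA was most like HSD11B1L (0.77), HSF4 (0.73) and SNRNP70 (0.73), and THRB most like EFEMP1 (0.69), EVI2B (0.69) and CDKL1 (0.65). Among FF libraries alone the r of THRB with EVI2B was 0.35 and with CDKL1 0.36.

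Of 13 tested genes that supply thyroid hormone or work beside its receptors, none was called by edgeR's quasi-likelihood test, beside 14.1% of all genes, and 3 had an unadjusted p under 0.05, as 30% of all genes did. DESeq2 called 1 of them and voom 3, beside 17.3% and 28% of all genes. The list's median log2 fold change was −0.12. KLF9, a gene that thyroid hormone and glucocorticoids raise in many cells, ran from 35.3 through 49.2 to 76.0 in FF and from 13.1 through 27.8 to 90.9 in RES. RES GCs differed by −0.66 on the log2 scale (SE 0.24, p = 0.0101, adjusted p = 0.0619 by edgeR). It passed with DESeq2 (adjusted p = 0.0405), with voom (adjusted p = 0.00251) and in 2 of the 27 fits that left out 1 sow. The deiodinases, which activate or remove the hormone, were low: DIO1 was at 5.94 in FF and 4.26 in RES, DIO2 at 6.99 and 9.09, and DIO3 had no count. The corepressor NCOR1 (1234 and 1201) and the mediator subunit MED1 (1837 and 1926) were the most abundant genes not called.

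KLB (ENSSSCG00000026297, beta-klotho, at chr8:30653434-30696123, plus strand) and FGFR1 (ENSSSCG00000015815, at chr15:48053895-48106634, plus strand) were both well above the limit in every library. KLB ran from 25.2 through 65.2 to 87.4 in FF and from 55.3 through 72.4 to 110 in RES, and 4 RES sows stood above the highest FF sow. On the log2 scale RES GCs were at 0.21 relative to FF (SE 0.14, adjusted p = 0.337 by edgeR), with a 95% interval of the fold from 0.942 to 1.42. FGFR1 ran from 42.9 through 77.1 to 168 in FF and from 55.6 through 86.0 to 124 in RES, with 11 of 14 RES sows above the FF median.

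FGFR1 had a fitted log2 fold change of 0.04 (SE 0.16, adjusted p = 0.884 by edgeR), and its 95% interval of the fold was 0.825 to 1.29. FF sow 10 held the highest FGFR1 level, and without it the log2 fold change was 0.18 (adjusted p = 0.333). Split by quality, FGFR1 was at 0.34 in the upper group and −0.25 in the lower (interaction −0.58, SE 0.30, p = 0.0611, adjusted p = 0.432 by edgeR). The values by group rest on where this sow is placed: without this sow the lower group was at −0.0061 (interaction p = 0.21 before adjustment), and with it in the upper group that group was at 0.094 (interaction p = 0.792). KLB was at 0.40 and −0.0018 (interaction p = 0.169 before adjustment), and at 0.065 in the lower group without FF sow 10. FGFR1 was most like CDK9 (0.82), DCTN1 (0.81) and MED9 (0.81), and KLB most like SCAF4 (0.71), ZNF664 (0.71) and TRIM35 (0.70).

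**Figure D4:**
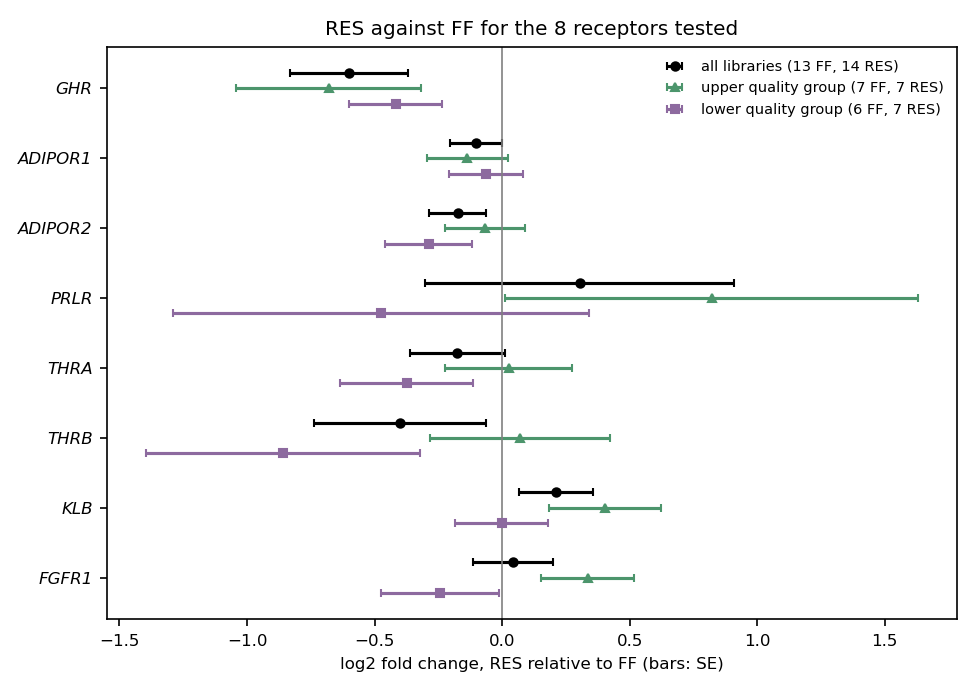
Log2 fold change of the 8 receptors tested, RES relative to FF (x axis, bars show the SE), in all libraries, in the upper quality group and in the lower one. GHR, ADIPOR1 and ADIPOR2 lie below 0 in all 3 fits, while PRLR, THRA, THRB, KLB and FGFR1 have values on both sides of 0, with FF sow 10 counted in the lower group.

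Of 15 tested genes of the FGF receptor arm, DUSP6 was lower in RES GCs and 14 were not called, a share called of 6.67% beside 14.1% of all genes. DUSP6, a phosphatase that ERK signalling induces and that inactivates ERK, ran from 40.4 through 79.9 to 155 in FF and from 35.8 through 63.4 to 130 in RES. The fit put it at −0.56 on the log2 scale (SE 0.19, adjusted p = 0.0451 by edgeR), and it was called in 9 of the 27 fits that left out 1 sow. The adaptor FRS2, which docks on FGF receptors, varied widely, from 955 to 8552 in FF and from 742 to 4471 in RES. Its adjusted p was 0.566. The exchange factor SOS1 was at 2508 and 2510. Of the other FGF receptor kinases, FGFR2 was at 42.2 and 35.5, FGFR3 at 3.49 and 6.07 and FGFR4 at 1.35 and 1.07, while FGFRL1, a relative without a kinase domain, was at 169 and 156.

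VDR (ENSSSCG00000020864, the vitamin D receptor, at chr5:78205807-78266505, minus strand) was close to undetected. It had 10 counts in 7 of the 13 FF libraries and 4 counts in 3 of the 14 RES libraries, and no library held more than 2. A count of 0 in a library allows up to 3, so the level in single sows was not detectable at this depth. A fit without a count filter gave −1.247 on the log2 scale (SE 0.65, p = 0.0655, adjusted p = 0.23 by edgeR).

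The partners of VDR were better represented. RXRA, a retinoid X receptor, was at 88.3 ± 15.1 in FF (SD, n = 13) against 95.9 ± 19.8 in RES (SD, n = 14) and was not called. RXRB was at 55.6 ± 12.5 and 43.3 ± 11.11, below the FF median in 13 of 14 RES sows (log2 fold change −0.40, SE 0.15, adjusted p = 0.0641 by edgeR). It passed with DESeq2 (adjusted p = 0.037) and with voom (adjusted p = 0.0472). Of the 8 tested genes of this list, PDIA3 and SNW1 were higher in RES GCs and the others were not called. The share called was 25% beside 14.1% of all genes, of which 8.29% were higher. PDIA3 is chiefly a disulphide isomerase of the endoplasmic reticulum and SNW1 a spliceosome protein that also binds VDR.

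PDIA3 ran from 2459 through 3688 to 5497 in FF and from 2569 through 5726 to 7058 in RES (log2 fold change 0.49, SE 0.14, adjusted p = 0.0223 by edgeR). SNW1 was at 1207 ± 156 and 1441 ± 184 (log2 fold change 0.21, SE 0.07, adjusted p = 0.0389) and lost its call in 11 of the 27 fits that left out 1 sow. CYP24A1, the gene that vitamin D raises most in many tissues, had a count in 1 of 27 libraries.

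Set per kilobase of the longest RefSeq transcript, the receptors lay in the same broad order in both diets. ADIPOR1 was highest, with 64.8 ± 10.4 normalised counts per kilobase in FF (SD, n = 13) against 62.2 ± 12.3 in RES (SD, n = 14). ADIPOR2 (27.2 ± 4.26 and 24.8 ± 5.08) and FGFR1 (25.2 ± 9.63 and 26.8 ± 5.38) followed and did not differ beyond their spread. GHR (13.1 ± 6.99 and 8.80 ± 4.50) and KLB (10.3 ± 2.54 and 12.4 ± 3.07) came next, also within their spread of each other and in opposite order in FF and RES.

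THRA was at 6.25 ± 1.86 and 5.68 ± 2.01 normalised counts per kilobase. PRLR (2.75 ± 2.75 and 3.46 ± 4.07) and THRB (2.72 ± 1.38 and 2.13 ± 1.25) could not be ordered. LEPR was at 0.588 and 0.506 and VDR at 0.199 and 0.0666. The counts were made on Ensembl models and the lengths come from RefSeq, where PRLR and FGFR1 have a single transcript of 1875 and 3282 bases, so the order holds only as far as both annotations share their exons. For ADIPOR2 and THRA, and for KLB over 133 bases (1.97% of its exons) shared with RPL9, a ribosomal protein gene on the opposite strand, overlapping exons could shift the level per kilobase, which was not tested. With the length of all exons together, THRB was at 1.62 and 1.27.

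Of 15 tested receptors for other hormones and metabolites, 3 were lower in RES GCs, 1 was higher and 11 were not called. The share called was 26.7% beside 14.1% of all genes. RORA, an orphan nuclear receptor, was at 196 ± 51.4 in FF (SD, n = 13) against 123 ± 36.9 in RES (SD, n = 14), or −0.70 on the log2 scale (SE 0.15, adjusted p = 0.00343 by edgeR). NR3C1, the glucocorticoid receptor, was at 506 ± 110 and 366 ± 96.5 (−0.50, SE 0.14, adjusted p = 0.0184). GHSR, the receptor of ghrelin, was at 135 ± 43.1 and 78.7 ± 41.5 (−0.81, SE 0.24, adjusted p = 0.0238). These 3 genes kept their calls in all 27 fits that left out 1 sow.

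PPARG, a nuclear receptor for fatty acids, was the receptor that was higher. It ran from 462 through 1272 to 2862 in FF and from 592 through 2197 to 4911 in RES, or 0.95 on the log2 scale (SE 0.30, adjusted p = 0.0315 by edgeR). It lost its call in 6 of the 27 fits. IL6ST (4309 and 4469) and the IGF1 receptor IGF1R (1494 and 1335) were the most abundant receptors not called. With voom 7 receptors of this list were called, among them IGF1R (−0.32, adjusted p = 0.034). Over all the pathway lists 12 of 85 tested genes were called, 14.1%, the same share as of all genes tested, with 4 higher and 8 lower in RES GCs. With DESeq2's size factors in edgeR, STAT3 (adjusted p = 0.0501), APPL1 (0.0527) and DUSP6 (0.0589) missed the threshold and the adaptor genes GRB2 and SH2B3, named here for that reason, passed it, 11 calls in all. Without RES sows 3 and 5 there were 10 calls, with APPL1, SNW1 (0.065) and DUSP6 (0.0747) lost and SH2B3 gained, beside 1465 among all genes tested.

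**Figure D5:**
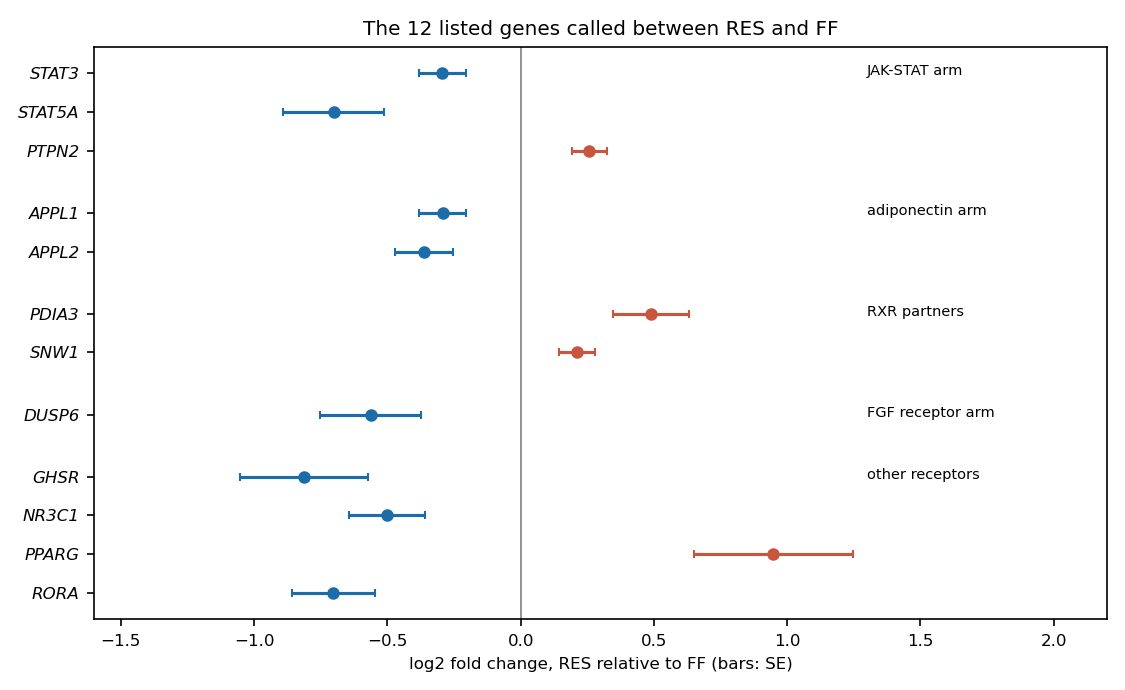
Log2 fold change, RES relative to FF (x axis, bars show the SE), of the 12 genes called among 85 tested genes of the pathway lists, grouped by list. The 4 genes to the right of 0 are PTPN2, PDIA3, SNW1 and PPARG, and GHSR lies farthest to the left at −0.81.

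The quality groups differed in how many genes passed at all. In the upper group 17.8% of the genes tested were called and in the lower group 0.00878%, which is 1 gene, and no gene had a called interaction, with edgeR's quasi-likelihood test in each. With FF sow 10 placed in the upper group, 9.07% were called there. No receptor and none of the 12 pathway genes passed within the lower group. Within the upper group 8 of the 12 passed, and STAT5A, PTPN2 (adjusted p = 0.0841), PDIA3 (0.0942) and SNW1 (0.299) did not. There 5 other listed genes passed, DIO2, EPOR, NCOA3, PAQR3 and PRKAA1, which made 13 calls. With FF sow 10 added to that group 6 of the 12 passed, as APPL1 (0.144) and APPL2 (0.11) also missed the threshold, and no other listed gene did. Markers of other cells moved with the diet too. Beside 5.85% of all genes called lower, EMCN, CLDN5, CDH5 and ESAM of the endothelial list (4 of 8) were lower in RES GCs. So were RGS5 and PDGFRB (2 of 8) of the smooth muscle and pericyte list, CYP11A1 (1 of 6) of the theca list, PROX1 (1 of 3) of the lymphatic list and HBB (1 of 2) of the erythroid list. None of the 10 GC and 6 stroma markers tested was called. All 6 stroma markers had a log2 fold change below 0, and COL3A1 and PDGFRA had an unadjusted p under 0.05 by edgeR. Of the GC markers 7 lay above 0 and 3 below, and only INHBB had an unadjusted p under 0.05 (log2 fold change 0.66, adjusted p = 0.0907 by edgeR). Of the 5 immune markers tested none was called either, but all had a log2 fold change below 0, with a median of −0.85, and 3 had an unadjusted p under 0.05, beside 14.3% of all genes below 0 at that p. EMCN, for example, was at 509 in FF and 305 in RES (log2 fold change −0.78, adjusted p = 0.00283). The part of these markers in the values of GHR, STAT5A and the other lower genes was not tested.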

How the data were processed

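The deposited files hold whole-number counts per Ensembl gene (release 110 per the file headers), 1 file per sow. The authors cleaned reads with SOAPnuke, aligned them to Sscrofa11.1 with HISAT2 2.2.1, kept unique matches, removed PCR copies with UMI-tools 1.1.4 and counted read pairs on exons with featureCounts 1.6.2 without a strand option, although the libraries kept strand. Read statistics of the study gave the quality groups. The labels say that FF sow 9 was left out for low RNA integrity, whereas the study's table of RNA quality, which has rows for both sows, puts the lowest integrity at FF sow 10. Which row belongs to the library labelled FF sow 10, and so its quality group, is therefore uncertain.

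Identifiers with a symbol and a mean count of at least 5, small RNAs left out, were tested (11384) with edgeR 4.0.16 (TMM, quasi-likelihood test, Benjamini-Hochberg adjustment, R 4.3.3), a call being an adjusted p under 0.05. Each SE was obtained from the fold change and the F statistic (log2 fold change over root F), and 95% intervals use it with 25 degrees of freedom. Normalised counts are counts divided by DESeq2 1.42.0 size factors. Tests were first tested on simulated data. Likeness is Pearson's r of log2(normalised count + 1) within diets, over genes with a mean of at least 20. From each list, called genes (at most 6) and the 2 most abundant others were named. Genes named beside these, for function, were chosen with values in view. Positions, lengths and sequence are RefSeq's. Alternatives were DESeq2, limma 3.58.1 voom, other size factors and filters, a replicate block, the quality group and leaving out sows. The receptors and lists were chosen with earlier results of these data known. Intervals cover only the spread between these sows. 1 listed gene is not reported here.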

Additional observations from a re-analysis of the deposited data

How the results depend on the processing

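Of 95 fits of the receptors under other settings, 86 kept the direction and the side of the threshold, as did 212 of 216 fits that left out 1 sow. The count of receptors called, 0, became 1 (GHR, lower) with DESeq2 and with voom, and ranged from 0 to 1 when 1 sow was left out. Over all genes the count of 1610 became 2023 in the upper quality group, 1 in the lower one and 3193 with voom, and ranged from 1182 to 2350 without 1 sow. The count of pathway genes called, 12, became 0 in the lower quality group, 5 with the replicate block and 21 with voom, with 8 to 16 without 1 sow. Under the block STAT5A, PTPN2, RORA and NR3C1 stayed called, STAT3, APPL1, APPL2, PDIA3, SNW1, DUSP6, GHSR and PPARG did not, and KLF9 was added (adjusted p = 0.0305). Sow numbers shared by 13 pairs of FF and RES libraries did not pair them (residual correlations −0.32 to 0.37, 2 above 0.1), and with the block 1086 genes and no receptor were called. The sign of the log2 fold change turned in the following fits. With the block this was PRLR (−0.012). In the lower quality group it was PRLR (−0.47), KLB (−0.0018), FGFR1 (−0.25), PTPN11 (−0.0055), IGF1 (0.15), PRKAA1 (0.088), MED1 (−0.0075), RXRA (−0.046) and SOS1 (0.076). In the upper one it was THRA (0.026), THRB (0.070), LEPROTL1 (−0.039), FGF2 (0.0080), NCOR1 (0.10), IL6ST (−0.048) and SOCS2 (0.0046). Without RES sows 3 and 5, which had the lowest base quality, it was FGFR1 (−0.0047) and FGF2 (0.034). With voom it was MED1 (−0.0023) and NCOR1 (0.0010). With DESeq2's size factors, all identifiers and upper-quartile factors it was SOS1 (0.00099 and 0.0037) and IL6ST (−0.013). Without 1 sow PRLR ran from −0.11 to 0.68, FGFR1 from −0.012 to 0.18, NCOR1 from −0.11 to 0.010 and IL6ST from −0.023 to 0.042. The cause was not tested. In alternatives chosen after the data were seen, placing FF sow 10 in the upper quality group turned THRA (−0.122) and THRB (−0.0259) there and lowered its count from 2023 to 1033 genes. Leaving this sow out turned KLB (0.065) in the lower group, where edgeR then called 0 genes, with 1325 at an unadjusted p under 0.05. No other scaling moved the median of all genes by more than 0.0454. Depth limits LEPR, PRLR and VDR most, with 84, 164 and 14 counts over all libraries.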
